A study of Mus musculus with 6 samples.

Results

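Acetylation of histone H3 on lysine 56 (H3K56ac) was mapped at 10 genes of glucose breakdown in mouse embryonic stem cells (mESCs). The genes are *Slc2a1*, *Hk2*, *Pfkp*, *Aldoa*, *Gapdh*, *Eno1*, *Pkm*, *Ldha*, *Ldhb* and *Pdk1*, and they were chosen by name as glycolysis genes described as restrained by SIRT6, out of 21938 protein-coding genes. All peaks with a base in the gene body or up to 20 kb on either side were taken, which gave 18 of the 11106 peaks in the set. A promoter peak was a peak whose midpoint lay within 1 kb of any annotated transcript start of the gene. By this rule 8 of the 10 genes had a promoter peak, and *Slc2a1* and *Pfkp* had none.

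The cells were V6.5 mESCs grown on feeder cells. After lentiviral infection and puromycin selection they expressed a scrambled shRNA in the control cells (Scramble) or a *Sirt6* shRNA in the knockdown cells (*Sirt6* KD), and a single shRNA stands for the knockdown, whose depth was not measured here. H3K56ac was immunoprecipitated in 2 Scramble and 2 *Sirt6* KD libraries, with 1 input library per condition. The peaks of the libraries came as 1 merged set of positions without a height, a read count or a mark of the library of origin, so Scramble and *Sirt6* KD cells cannot be told apart in any value below, and the restraint by SIRT6 that gave the genes their name was not measured here. The depth behind a peak is unknown for the same reason, and there is no replicate error on a width or a position. The study's reporting summary lists more enriched peaks for each *Sirt6* KD library than for either Scramble library. Any peak described below may therefore come from the *Sirt6* KD cells alone. The labelled cell type was checked against marker genes. Peaks reached to within 1 kb of a start at all 14 pluripotency markers, against 35.7% of all protein-coding genes. The midpoint rule counted 6 of the 14, against 33.9% of all genes. None of 14 fibroblast markers, which the feeder cells could bring, had a peak even in the window of 20 kb either side. Windows without a peak were found at 47.5% of all protein-coding genes.

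Glycolysis breaks glucose down to pyruvate in the cytosol. Lactate dehydrogenase can turn the pyruvate into lactate. Pyruvate dehydrogenase, inside mitochondria, commits pyruvate to mitochondrial metabolism unless the enzyme is switched off by pyruvate dehydrogenase kinase. SIRT6 is an NAD-dependent deacetylase of H3K9ac and H3K56ac, and it is known as a co-repressor of HIF1A, the hypoxia factor that drives many of these genes. H3K56ac marks active promoters and enhancers, and mESCs are known for a high rate of glycolysis.

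The DNA just before the start is shown for 6 of the genes, because they cover the range of positions that the peaks took. The bases before the *Ldha* and *Pdk1* starts lay wholly in a peak, those of *Hk2* reached only the edge of one, and those of *Ldhb*, *Slc2a1* and *Pfkp* lay in none. Each sequence is the 250 bases before the RefSeq start on GRCm38.p6, the assembly behind mm10, read 5′ to 3′ in the direction of the gene. Capitals mark the core letters bound by HIF factors, ACGTG and GCGTG, on either strand, so that CACGT and CACGC are the same cores read on the other strand.
Ldha, chr7:46846832-46847081, plus strand: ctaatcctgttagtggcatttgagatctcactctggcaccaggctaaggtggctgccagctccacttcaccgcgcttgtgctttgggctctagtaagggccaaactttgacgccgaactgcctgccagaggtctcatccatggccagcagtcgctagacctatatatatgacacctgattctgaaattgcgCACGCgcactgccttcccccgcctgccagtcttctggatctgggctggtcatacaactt
Pdk1, chr2:71872974-71873223, plus strand: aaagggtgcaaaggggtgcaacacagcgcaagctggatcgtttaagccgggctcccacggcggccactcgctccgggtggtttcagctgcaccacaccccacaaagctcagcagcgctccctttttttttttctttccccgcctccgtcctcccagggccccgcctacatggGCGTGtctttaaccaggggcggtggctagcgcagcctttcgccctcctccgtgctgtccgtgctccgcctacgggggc
Hk2, chr6:82774455-82774704, minus strand: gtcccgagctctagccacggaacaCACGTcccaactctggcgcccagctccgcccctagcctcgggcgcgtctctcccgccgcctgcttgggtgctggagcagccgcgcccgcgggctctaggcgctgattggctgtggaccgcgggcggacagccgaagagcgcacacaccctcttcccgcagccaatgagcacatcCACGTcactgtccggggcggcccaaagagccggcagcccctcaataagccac
Ldhb, chr6:142507958-142508207, minus strand: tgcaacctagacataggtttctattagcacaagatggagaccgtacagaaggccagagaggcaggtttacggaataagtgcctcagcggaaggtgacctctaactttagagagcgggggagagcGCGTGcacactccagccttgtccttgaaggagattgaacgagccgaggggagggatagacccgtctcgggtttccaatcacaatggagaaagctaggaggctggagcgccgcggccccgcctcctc
Slc2a1, chr4:119108495-119108744, plus strand: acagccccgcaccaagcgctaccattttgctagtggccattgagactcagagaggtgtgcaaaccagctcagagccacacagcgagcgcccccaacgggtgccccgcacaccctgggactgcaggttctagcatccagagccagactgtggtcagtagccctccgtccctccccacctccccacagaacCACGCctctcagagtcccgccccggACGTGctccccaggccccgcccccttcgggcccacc
Pfkp, chr13:6648772-6649021, minus strand: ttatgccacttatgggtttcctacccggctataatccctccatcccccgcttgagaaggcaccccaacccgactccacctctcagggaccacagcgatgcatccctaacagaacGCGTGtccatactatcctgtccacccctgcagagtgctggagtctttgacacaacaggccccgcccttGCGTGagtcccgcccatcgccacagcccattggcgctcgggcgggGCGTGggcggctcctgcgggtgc

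RefSeq lists 17 promoters for the 10 genes, with more than 1 for *Aldoa*, *Eno1*, *Pkm*, *Ldha* and *Pdk1*, and the one nearest to the reference start was used. In this full promoter of 300 bases, which adds 50 bases after the start, 9 of the 10 genes held at least 1 core and the genes held 19 cores in all. ACGTG was found in 4 genes and GCGTG in 7. Over 32851 RefSeq promoters of the same length, 19.6% held ACGTG, 32.4% held GCGTG and 43.8% held either. Both cores contain CG, and these shares were not matched for CpG content. The median observed to expected CpG ratio around the reference start was 0.688 for the 10 genes and 0.565 for all protein-coding genes. Of the 10 promoters nearest to the reference start, that of *Pfkp* held the most cores, 4, all of them GCGTG, while that of *Pkm* held none. *Gapdh* held 3, *Slc2a1*, *Hk2*, *Eno1*, *Ldha* and *Pdk1* held 2 each, and *Aldoa* and *Ldhb* held 1 each. The E-box CACGTG, which contains ACGTG and is bound by MYC and related factors, was in 0 of the 10 promoters nearest to the reference start and in 7.15% of all promoters. A match describes the letters alone and is not evidence of a bound factor. With all 17 promoters, 14 held a core, at least 1 in each of the 10 genes. The other *Pkm* promoter held 2. The upstream *Ldha* promoter (chr7:46845554-46845853) held 7 cores and 2 E-boxes, with 0 of its bases in a peak. The *Ldha* promoter peak begins at chr7:46845873, just past the end of that promoter. The promoter nearest to the reference start lay wholly in a peak for *Aldoa*, *Gapdh*, *Eno1*, *Pkm*, *Ldha* and *Pdk1*. For *Hk2* 65 of the 300 bases did, and for *Slc2a1*, *Pfkp* and *Ldhb* 0 did.

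The first question was how many of the genes carried H3K56ac at a start. A promoter peak was found at 8 of 10 genes (80%), against 33.9% of all protein-coding genes. Genes with several annotated starts have more chances to be counted, and the glycolysis genes had a median of 10 starts against 3 over all genes. Among the 9584 genes with 4 to 13 starts, the range of the glycolysis genes, 50.2% had a promoter peak. Promoters rich in CpG (an observed to expected ratio over 0.6) had one in 57.6% of cases. Of the glycolysis genes 6 were CpG-rich, and 5 of those 6 had a promoter peak. When it was enough for a peak to reach within 1 kb of a start by its edge, the count was again 8, against 35.7% of all genes. A peak lay over the reference start, the start of the principal transcript, at 7 of the 10, against 19.9% of all genes and 29.1% of those with 4 to 13 starts. When the midpoint had to lie within 1 kb of the reference start alone, 4 genes were left (*Aldoa*, *Ldha*, *Ldhb* and *Pdk1*), against 30.2% of all genes. *Hk2*, *Gapdh*, *Eno1* and *Pkm* were lost there because their midpoints lay 1172, 1237, 1023 and 1203 bp after it, just past the limit.

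**Figure D1:**
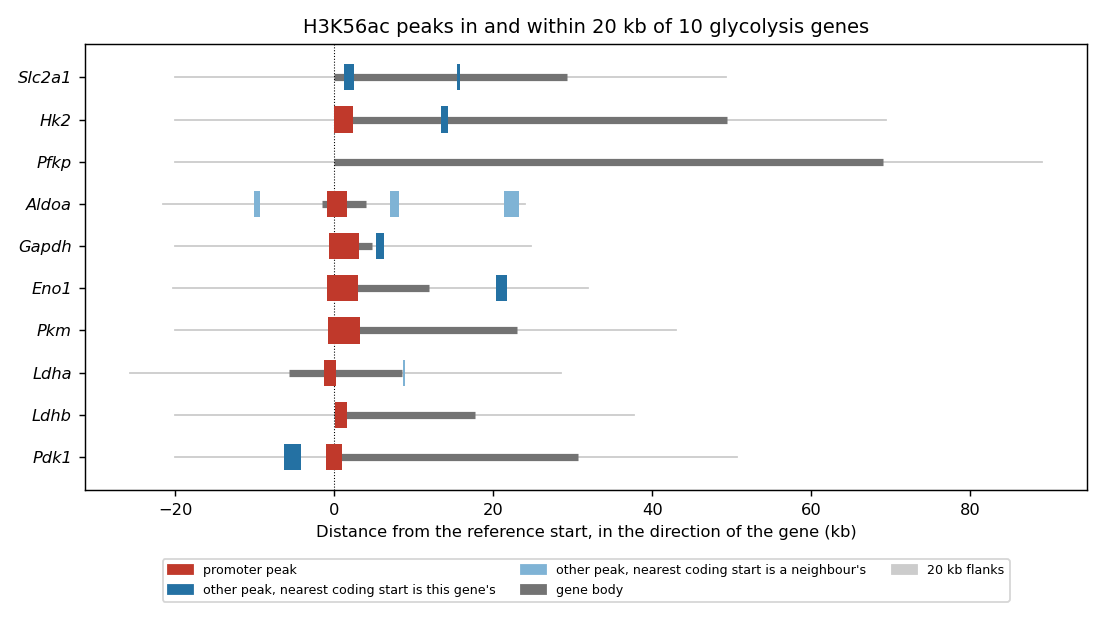
H3K56ac peaks in and around the 10 glycolysis genes, by distance from the reference start in kb and in the direction of the gene, with the gene body as a thick line and 20 kb on either side as a thin line. *Pfkp* has no peak in its window, *Slc2a1* has 2 peaks inside the gene and none at its start, and the other 8 genes have a promoter peak (red).

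The widths of the 8 promoter peaks ran from 1506 to 3963 bp with a median of 2447.5 bp. Over the 6489 distinct promoter peaks of the set, the median was 1182 bp and the quartiles were 711 and 2016 bp. All 8 peaks were thus wider than the median promoter peak. Promoter peaks of 3 kb or more were found at 3 of the 10 genes (*Gapdh*, *Eno1* and *Pkm*). The share over all protein-coding genes was 2.58%. These 3 peaks were counted through starts other than the reference start, since their midpoints lay over 1 kb after it. Genes with many starts have more chances to count such a peak, and the share among genes with 4 to 13 starts was not measured. With the reference start alone, the median width at the 4 genes left was 1823 bp. Width is the span of the merged peaks and not a height, so 1 wide peak in a library and several joined peaks cannot be told apart. The smallest gap between neighbouring peaks in the set was 1000 bp, a spacing that joining of overlapping peaks alone, as the methods describe it, would not give. How far the widths include bridged gaps was not tested.

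**Figure D2:**
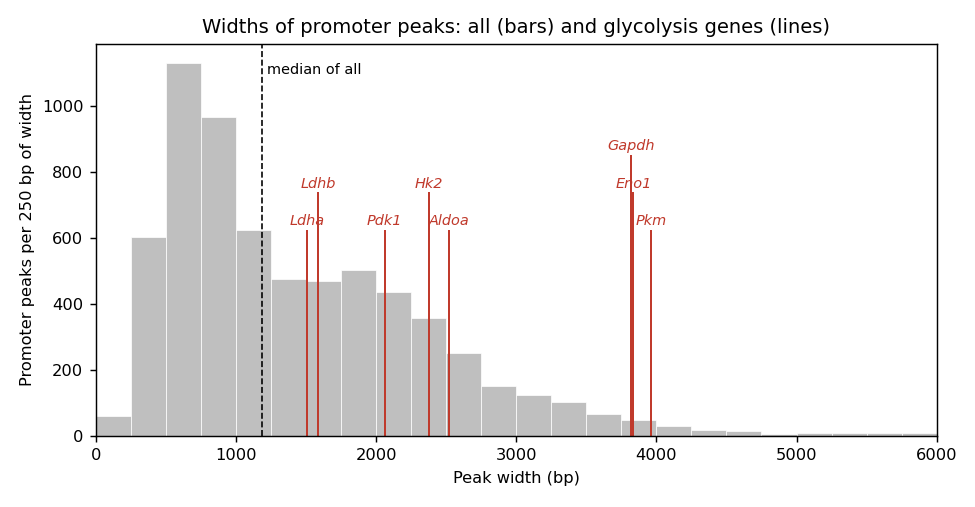
Number of promoter peaks per 250 bp of width for all 6489 distinct promoter peaks (grey bars), with the 8 peaks of the glycolysis genes as red lines and the median of all, 1182 bp, as a dashed line; line heights carry no value, and widths above 6000 bp are not drawn. *Ldha* and *Ldhb* sit nearest to the median, and *Gapdh*, *Eno1* and *Pkm* lie in the upper tail.

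Glucose enters through transporters, of which GLUT1, encoded by *Slc2a1*, is widely expressed. *Slc2a1* lies at chr4:119108711-119137983 on the plus strand. None of its 5 annotated starts lay in a peak, although its promoter was CpG-rich with a ratio of 0.808. The nearest peak, chr4:119109947-119111211, was 1265 bp wide and lay in an intron with its midpoint 1868 bp after the reference start. Its near edge was 1033 bp from the closest start, so it just missed the rule by base and would be counted with a limit of 3 kb. A second intronic peak, chr4:119124119-119124593, was 475 bp wide and lay 15645 bp after the reference start. Outside the window, 33576 bp before the gene, a peak of 5403 bp (chr4:119069733-119075135) had *Slc2a1* as its nearest coding start at 36277 bp. *Slc2a1* was therefore the only one of the 10 genes with peaks in its body and none at a start.

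Hexokinase traps glucose in the cell as glucose 6-phosphate, and *Hk2* encodes the inducible form that can bind mitochondria. *Hk2* lies at chr6:82725025-82774454 on the minus strand. Its promoter peak, chr6:82772095-82774469, was 2375 bp wide and held 3 of 4 annotated starts. The peak extended 15 bp before the reference start and 2360 bp after it, so 99.4% of it lay inside the gene. It covered 993 bp of exon and 1367 bp of intron. The midpoint was 81 bp from an internal start, and counting *Hk2* as a gene with a promoter peak rests on the internal starts. A second peak of 886 bp, chr6:82760093-82760978, lay in an intron 13919 bp after the reference start.

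Phosphofructokinase commits sugar to glycolysis, and *Pfkp* encodes its platelet form. *Pfkp* lies at chr13:6579768-6648777 on the minus strand and was the only one of the 10 genes without any peak in its window. The nearest peak edge was 38096 bp from a *Pfkp* start. The peak closest to the gene body, chr13:6548222-6548999, was 778 bp wide, lay 30769 bp away and had its midpoint 375 bp from a start of *Pitrm1*. A window without a peak is common, since 47.5% of all protein-coding genes had none. The *Pfkp* promoter had a CpG ratio of 0.559, below the limit for CpG-rich promoters. The other forms of the enzyme both had promoter peaks, of 1240 bp at *Pfkl*, the liver form, and of 2598 bp at *Pfkm*, the muscle form, which shares its peak with a start of *Senp1*.

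Aldolase splits fructose 1,6-bisphosphate, and *Aldoa* encodes its widely expressed form. *Aldoa* lies at chr7:126795234-126800751 on the minus strand. Its promoter peak, chr7:126797638-126800157, was 2520 bp wide, held 10 of 12 starts and reached 903 bp before and 1617 bp after the reference start. A start of the neighbouring gene *Fam57b* lay in the same peak, so the peak cannot be given to either gene alone. *Aldoa* had 4 peaks in its window, but the other three lay at neighbours. The peak chr7:126775985-126777891 (1907 bp) had its midpoint 17 bp from a start of *Ypel3*, and chr7:126791147-126792236 (1090 bp) was 456 bp from a start of *Ppp4c*. A peak of 793 bp, chr7:126808542-126809334, lay 170 bp from the start of a second annotated locus that also bears the symbol *Aldoa* and was not counted as the gene.

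*Gapdh* encodes glyceraldehyde 3-phosphate dehydrogenase, which makes the first NADH of the pathway. *Gapdh* lies at chr6:125161715-125166467 on the minus strand. Its promoter peak, chr6:125163322-125167138, was 3817 bp wide, at the 97.6th percentile of promoter peaks. It held 9 of 10 starts and reached 671 bp before and 3146 bp after the reference start. The gene is short, and 66.2% of its body lay under the peak, which covered 2526 bp of exon and 620 bp of intron. The CpG ratio around the *Gapdh* reference start was low, at 0.286, although the peak covered that start. The RefSeq start of *Gapdh* lay 694 bp after the reference start, so this ratio mostly describes sequence upstream of the RefSeq promoter. The bases just before the RefSeq start had a ratio of 0.422, and the peak as a whole had 0.425. These values were higher but still below the limit for CpG-rich promoters. A second peak of 967 bp, chr6:125160252-125161218, lay 497 bp past the end of *Gapdh* in an exon of *Iffo1*, with a *Gapdh* start still the closest at 1792 bp.

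Enolase makes phosphoenolpyruvate, and *Eno1* encodes the form found in most tissues. *Eno1* lies at chr4:150236721-150248879 on the plus strand. Its promoter peak, chr4:150236058-150239893, was 3836 bp wide and held 5 of 10 starts. It reached 894 bp before and 2942 bp after the reference start, with 1095 bp in exons and 2078 bp in introns. A peak of 1390 bp, chr4:150257350-150258739, lay between genes 8471 bp past the end of *Eno1*, and no coding start was closer to it than 10479 bp.

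Pyruvate kinase yields pyruvate and ATP, and *Pkm* encodes the M1 and M2 forms by alternative splicing. *Pkm* lies at chr9:59656368-59679375 on the plus strand. Its promoter peak, chr9:59655590-59659552, was the widest of the 8 at 3963 bp, the 98.0th percentile of promoter peaks. It held 9 of 11 starts and reached 778 bp before and 3185 bp after the reference start. It was the only peak in the *Pkm* window.

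Lactate dehydrogenase is built from A and B subunits, and the A form favours making lactate from pyruvate. *Ldha* lies at chr7:46841475-46855627 on the plus strand. Its promoter peak, chr7:46845873-46847378, was the narrowest of the 8 at 1506 bp and lay mostly before the reference start, with 1258 bp before it and 248 bp after it. Many *Ldha* transcripts start upstream of the reference start, and the peak held 3 of 13 starts. Several coding transcripts start between 46845839 and 46845870, just before the near edge of the peak. Relative to those starts the peak lay inside the gene, so its place depends on the start chosen. A peak of 233 bp, chr7:46855794-46856026, lay 167 bp past the end of *Ldha*. Repeats made up 51.9% of it, and its nearest coding start was that of *Ldhc*, the testis form, at 5293 bp.

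*Ldhb* encodes the B subunit and lies at chr6:142490249-142507957 on the minus strand. Its promoter peak, chr6:142506321-142507904, was 1584 bp wide and was the only peak in the window. The peak lay wholly inside the gene, and its edge at 142507904 fell just short of the reference start at 142507957. Its midpoint was 845 bp after the reference start and 693 bp from the nearest start. The peak held 1 of 4 starts, and with a distance limit of 500 bp *Ldhb* would not be counted. The *Ldha* peak, of similar width, straddled its reference start and lay mostly before it, yet began just after several upstream *Ldha* starts.

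*Pdk1* encodes a pyruvate dehydrogenase kinase, which switches off pyruvate dehydrogenase. *Pdk1* lies at chr2:71873224-71903858 on the plus strand. Its promoter peak, chr2:71872208-71874269, was 2062 bp wide, held 6 of 8 starts and was centred 14 bp from the reference start. With 1016 bp before and 1046 bp after that start, it was the most even of the 8. An upstream peak of 2200 bp, chr2:71866880-71869079, lay between genes 5245 bp before the reference start and had a GC content of 42.6%. No other coding start was closer to it than that of *Pdk1*.

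**Figure D3:**
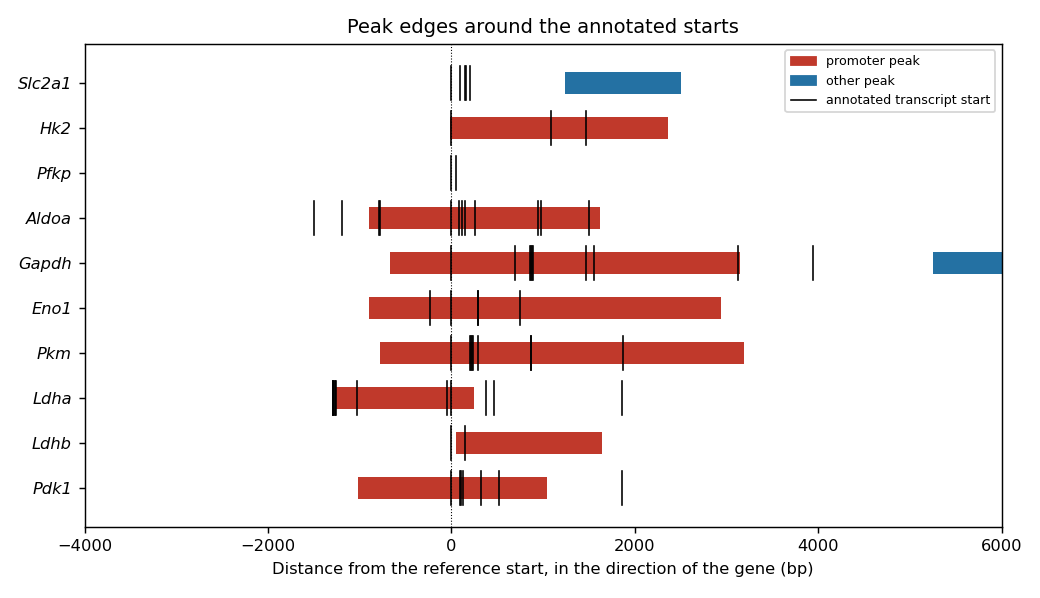
Edges of the peaks around each gene's starts, by distance from the reference start in bp and in the direction of the gene, with annotated transcript starts as black ticks. Peaks of *Hk2*, *Gapdh*, *Eno1* and *Pkm* reach 2360 to 3185 bp after the reference start, the *Pdk1* peak is centred on it, and the *Ldha* peak lies mostly before it.

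Most of the 8 promoter peaks reached further into the gene than before its reference start. The share of a peak after the reference start ranged from 16.5% at *Ldha* to 100% at *Ldhb*, with a median of 78.5% against 63.3% over all genes with a promoter peak. The peaks reached a median of 1988.5 bp after the start and 836 bp before it, against 851 and 570.5 bp over all such genes. The midpoint lay after the reference start in 7 of the 8, as it did in 65.7% of all genes with a promoter peak. *Hk2*, *Gapdh*, *Eno1* and *Pkm*, with 99.4%, 82.4%, 76.7% and 80.4% after it, were counted only through other starts. The 4 genes kept by the reference start alone had 64.2% (*Aldoa*), 16.5% (*Ldha*), 100% (*Ldhb*) and 50.7% (*Pdk1*). These shares and lengths were not measured among genes with 4 to 13 starts. Over the 87 annotated starts of the 10 genes, 46 lay in a peak, against 20% of the starts of all protein-coding genes and 22.5% in genes with 4 to 13 starts. Of the 54 starts of coding transcripts 30 lay in a peak, against 20.9% and 25.5%. Starts of 1 gene lie close together and often share a peak, so they are not independent. At *Hk2*, *Gapdh* and *Pdk1* every start of a coding transcript lay in a peak, and at *Slc2a1* and *Pfkp* none did.

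The windows of the 10 genes held 1.8 peaks on average, with a median of 2, against 0.975 and 1 over all protein-coding genes and a median of 2 over genes with a promoter peak. Of the 18 peaks, 14 had a start of the glycolysis gene itself as the nearest start of any protein-coding gene, and 4 were nearest to a neighbour. Peaks touched a gene body in 11 cases. A median of 4.84% of the window lay under peaks, against 0.351% for all genes and 3.23% for genes with a promoter peak. Of the body itself, a median of 12.2% lay under peaks at the 8 genes with a promoter peak, against 4.29% for all such genes. *Gapdh* and *Aldoa* were the highest at 66.2% and 45.7%, and they are the shortest of the 10 genes, at 4753 and 5518 bp. Neither the window share nor the body share was matched for gene length.

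Inside the promoter peaks, HIF cores were counted per kb of sequence. The median was 3.79 per kb at the 8 genes and 2.52 per kb over all promoter peaks. *Ldha* had 8.63, *Pdk1* 7.27 and *Hk2* 6.32 per kb, while *Ldhb* had 1.26. Both cores contain the letters CG, and how far the counts move with CpG content was not tested.

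Several of these genes have processed pseudogenes, and reads that map to more than 1 place were dropped before peaks were called. The share of 75-base windows with an exact copy elsewhere was therefore measured, 75 bases being the read length in the study's methods, while its reporting summary lists slightly longer reads. In the promoter peaks it was 1.12% at *Gapdh*, 1.38% at *Eno1* and 0% at the other six genes. Within 1 kb of the reference starts of *Slc2a1* and *Pfkp*, the genes without a promoter peak, 0 of 1927 windows had a copy. In exons the share was higher, at 20.6% for *Gapdh*, 16.8% for *Ldhb*, 15.4% for *Eno1* and 10.7% for *Pkm*. Only exact copies were counted, so near-identical sequence that an aligner may also set aside was not covered.

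The rest of the pathway was described from lists chosen by function. Other isozymes of the same steps had a promoter peak in 6 of 18 genes (33.3%), close to the 33.9% of all genes. These were *Slc2a3*, *Slc2a4*, *Hk1*, *Pfkl*, *Pfkm* and *Pdk3*, with a median width of 871 bp. *Slc2a3* encodes GLUT3, the transporter best known from neurons. Its promoter peak of 779 bp stood beside a wider peak of 4747 bp that also reached within 1 kb of a start, and its window held 8 peaks, where that of *Slc2a1* held 2.

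The other steps of glycolysis and lactate export had a promoter peak in 9 of 13 genes (69.2%), against 33.9% of all genes. The median width was 1284 bp. Of the 13 genes 7 were CpG-rich, and 6 of those 7 had a promoter peak, against 57.6% of all CpG-rich promoters. Among the 9 genes were *Gpi1*, the isomerase after hexokinase, with 1152 bp, and *Pgk1*, which makes the first ATP, with 633 bp. *Pgam1*, a phosphoglycerate mutase, had 1747 bp. The lactate exporters *Slc16a1* and *Slc16a3* had peaks of 2187 and 1843 bp. *Tpi1*, triose phosphate isomerase, had no promoter peak, and its nearest peak edge was 2198 bp from a start.

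Genes for the entry of pyruvate into mitochondrial metabolism (its carrier, the pyruvate dehydrogenase complex and its phosphatases, and pyruvate carboxylase) had a promoter peak in 7 of 10 (70%). Their median width was 1454 bp. Gluconeogenesis, the reverse pathway, had one in 1 of 6 (16.7%), at *Pck2*. Regulators of the glycolysis genes had one in 4 of 8 (50%). The share of all genes was 33.9%, and that of CpG-rich promoters was 57.6%. The lists differed in promoter class. CpG-rich were 8 of the 10 pyruvate genes, 1 of the 6 gluconeogenesis genes and 7 of the 8 regulators. Of these CpG-rich genes 6, 0 and 3 had a promoter peak. *Hif1a* had a peak of 439 bp, *Arnt*, its partner, of 1090 bp and *Egln2*, an oxygen sensor that marks HIF1A for removal, of 2345 bp. *Sirt6* itself had a peak of 1888 bp, which also held a start of *Ankrd24*. No peak of the *Sirt6* KD alone could be read from the set. In all, 27 of the 55 other pathway genes (49.1%) had a promoter peak, against 33.9% of all genes, with a median width of 1240 bp. Of the 55 genes 27 were CpG-rich, and 17 of those had a promoter peak.

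**Figure D4:**
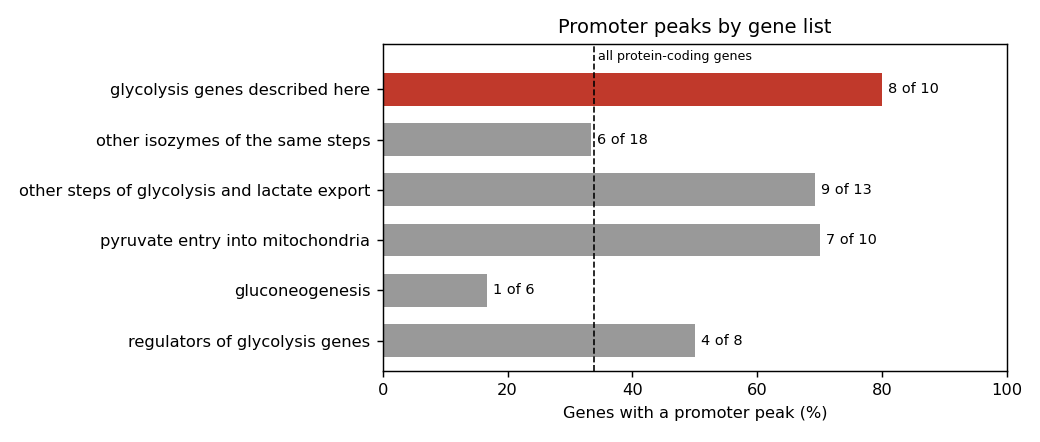
Share of genes with a promoter peak in %, for the 10 glycolysis genes (red) and the other lists of the pathway (grey), with the number of genes beside each bar and all protein-coding genes, 33.9%, as a dashed line. The glycolysis genes, the other steps, pyruvate entry and the regulators lie above the line, the other isozymes lie at it and gluconeogenesis lies below it.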

How the data were processed

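H3K56ac ChIP-seq of Scramble and *Sirt6* KD mESCs was analysed as 1 merged peak set. The authors trimmed reads with Trim Galore, aligned them to mm10 with bowtie, kept reads with 1 location and discarded duplicate reads (Picard). Peaks were called by MACS2, those in blacklisted regions were left out, and the rest were joined where they overlapped (GenomicRanges). The deposited file gave positions, and its deposited score column was 0 throughout and carried no measurement. Merging hides library, height and depth, and no gap between neighbouring peaks was under 1000 bp, so gaps may have been bridged when peaks were joined, which would widen them. Groups were taken from sample titles.

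Starts were all transcript starts of protein-coding genes in GENCODE M21, and the reference start was that of the principal transcript. A nearest coding start is the nearest start of any protein-coding gene, with starts of its non-coding transcripts included. Midpoints within 1 kb of a start defined promoter peaks. CpG ratios used 500 bp on either side of the reference start. RefSeq promoters were matched by symbol for all 10 genes, taking the one nearest to the reference start. All 10 genes are named, others if they belong to a list (isozymes, other steps, pyruvate entry, gluconeogenesis, regulators, markers) or have a start at a peak described. Genes and lists were chosen with earlier results of these data known. Some genes of the lists are not reported here by name. No test was run. Python 3.11.15, numpy 2.4.6, scipy 1.17.1 and matplotlib 3.10.9 were used, and the counting was checked on simulated data. Alternatives changed the starts, the distance, the peaks and the window.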

Additional observations from a re-analysis of the deposited data

How the results depend on the processing

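Of 21 alternatives tried on 4 results, 19 stayed within 1.5 times of the reported value and 2 did not. With the reference start alone, 4 of the 10 genes had a promoter peak in place of 8, and *Hk2*, *Gapdh*, *Eno1* and *Pkm* were lost, whose midpoints lay over 1 kb after that start. With windows of 50 kb on either side, 29 peaks were counted in place of 18. The share of all genes with the reference start alone was 30.2%. The other counts of the 10 genes were 7 to 9, while the share of all genes under the same rules ran from 21.9% to 36.9%. *Eno1* was lost with GENCODE basic transcripts and *Ldhb* at 500 bp, and *Slc2a1* was gained at 3 kb. The other pathway genes with a promoter peak numbered 18 to 30 of 55. The lowest count came with peaks wider than the median (21.9% of all genes) and the highest with the 3 kb limit (36.9%). The median width of the glycolysis genes' promoter peaks was 1823 to 2520 bp.

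A stricter peak threshold was not run, since the score was 0 at every peak, and neither was leaving out a replicate. No paired analysis was possible because the joined peaks have no values of single libraries. Depth is unknown, so a gene without a peak is not shown to lack acetylation.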
